A study of Mus musculus with 4 samples.

Results

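Intergenic H3K4me3 peaks that lie near a transcript start, but not on one, numbered 1285 of the 24996 peaks mapped in mouse heart (5.14%, exact binomial 95% interval 4.87 to 5.42%, counting error only). A peak was taken when it overlapped no annotated gene body of any type in GENCODE M21 on the mouse build mm10, and when its nearest edge lay more than 1000 and at most 10000 bp from the nearest annotated transcript start. Trimethylation of lysine 4 on histone H3 (H3K4me3) had been mapped by chromatin immunoprecipitation and sequencing in hearts of female B6CASTF1/J mice, a hybrid strain, at 2 months of age. The 4 libraries came from pools G and H, which the labels number as biological replicates 1 and 2. Each pool was made of 2 heart biosamples and gave 2 technical replicates. No genotype, treatment or second tissue was included. All labels name the same donor record and none states that the pools came from different animals, so the spread between pools may be technical.

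H3K4me3 is laid down by the SET1 and MLL methyltransferases around starts of transcription, where CpG-rich DNA helps to recruit them, and it is read by proteins of the initiation machinery. A peak away from every annotated start can mark a start that one annotation lacks, an enhancer that is itself transcribed, or the outer part of a broad promoter domain. Transfer RNA (tRNA) genes, which RNA polymerase III transcribes from promoters inside the gene, also carry the mark in their flanks. GENCODE M21, as used here, holds none of the nuclear ones, whereas RefSeq lists them by amino acid and anticodon.

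The strongest peak of the set, and the peaks near 3 genes of the heart muscle programme, are shown by their sequence, as the 300 bp around the summit on the forward strand of the RefSeq GRCm38.p6 genome, which is the mm10 build. This is the reference strain, not the sequence of the hybrid mice. In the first window, capitals mark CpG dinucleotides. The strongest peak, at chr17:83861270-83863057, is CpG-rich, and its window, chr17:83861629-83861928, ends just before the isoleucine tRNA gene n-TIaat17.
chr17 peak: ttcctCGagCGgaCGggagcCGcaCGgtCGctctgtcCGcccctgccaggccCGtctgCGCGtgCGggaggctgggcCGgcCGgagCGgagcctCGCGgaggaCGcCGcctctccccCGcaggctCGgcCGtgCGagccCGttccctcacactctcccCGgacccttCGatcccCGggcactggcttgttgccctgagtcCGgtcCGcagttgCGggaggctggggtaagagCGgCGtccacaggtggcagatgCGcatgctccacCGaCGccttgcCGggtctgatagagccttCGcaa

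The chr17 window held 36 CpG and 72% G and C. In the next 3 windows, near Hand2 (chr8:57328355-57328654), Nkx2-5 (chr17:26850074-26850373) and Myl2 (chr5:122093441-122093740), capitals mark any letters of the MEF2, GATA, TEAD and NKX2 motifs defined further on. The Hand2 window held AGATAA and CATTCC, read on either strand, the Nkx2-5 window held AAGTGG, and the Myl2 window held AAGTGG at 2 places. Among windows not printed, the one near Cox8b held none of these letters. The one near Kcnh2 held AAGTGG, and the one near Mef2d held AAGTGG and AGATAA. A match is a string of letters and not a binding site.
Hand2: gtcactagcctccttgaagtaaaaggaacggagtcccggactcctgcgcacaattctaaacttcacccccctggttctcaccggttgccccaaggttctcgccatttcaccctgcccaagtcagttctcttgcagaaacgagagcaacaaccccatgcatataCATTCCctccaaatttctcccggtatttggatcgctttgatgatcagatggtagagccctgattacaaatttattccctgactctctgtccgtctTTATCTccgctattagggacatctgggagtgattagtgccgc
Nkx2-5: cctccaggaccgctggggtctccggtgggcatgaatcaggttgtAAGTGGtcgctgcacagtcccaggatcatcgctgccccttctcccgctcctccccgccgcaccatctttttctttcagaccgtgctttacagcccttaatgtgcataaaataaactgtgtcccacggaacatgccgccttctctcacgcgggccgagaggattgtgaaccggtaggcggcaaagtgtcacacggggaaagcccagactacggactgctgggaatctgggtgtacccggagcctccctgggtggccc
Myl2: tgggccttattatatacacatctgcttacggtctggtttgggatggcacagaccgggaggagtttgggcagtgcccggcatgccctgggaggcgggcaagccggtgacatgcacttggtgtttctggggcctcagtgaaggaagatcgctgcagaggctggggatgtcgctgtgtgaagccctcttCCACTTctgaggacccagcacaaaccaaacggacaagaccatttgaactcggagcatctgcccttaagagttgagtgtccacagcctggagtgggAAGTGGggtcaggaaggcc

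The tRNA genes under the first and second strongest peaks follow on their coding strand, at chr17:83861944-83862036 (forward) and chr13:21200204-21200308 (forward). Capitals mark the B box letters GTTCGANNC, the inner promoter element that the factor TFIIIC binds.
n-TIaat17: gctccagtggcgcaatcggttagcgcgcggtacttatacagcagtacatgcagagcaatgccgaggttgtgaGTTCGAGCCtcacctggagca
n-TLcaa1: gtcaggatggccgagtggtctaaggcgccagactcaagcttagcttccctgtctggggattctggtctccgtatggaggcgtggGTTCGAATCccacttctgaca

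The B box letters began at position 73 of n-TIaat17 and at position 85 of n-TLcaa1, counted from 1 at the 5′ end. The sequences of n-TIaat17 and n-TLcaa1 each occurred once among the listed tRNA genes.

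These intergenic peaks were weaker and narrower than promoter peaks and somewhat stronger than intronic ones. The signal value that the authors deposited for each peak was read as a fold enrichment over control. Over the 1285 peaks its median was 4.29 (quartiles 3.21 and 6.35, range 1.82 to 24.3), and the median width was 512 bp (quartiles 333 and 803 bp). Peaks within 1 kb of a start had a median of 12.5 and 1349 bp (n = 17622). Intergenic peaks more than 10 kb from a start had a median of 3.96 and 495.5 bp (n = 1454), intronic peaks 3.26 and 446.5 bp (n = 3624), and exonic peaks 3.83 and 578 bp (n = 1011). A fold enrichment of 10 or more was reached by 141 of the 1285 (10.97%), against 44.3% of all peaks in the list, and 248 lay below 3.

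The order of the classes was the same in the lists called on each pool alone. The median of the near intergenic peaks was 5.02 in pool G and 4.70 in pool H, a mean of 4.86 ± 0.227 (SD, n = 2 pools). Their median exceeded that of far intergenic peaks by 0.472 in pool G and by 0.168 in pool H, that of intronic peaks by 1.08 and 0.865 in pools G and H, and that of exonic peaks by 0.477 and 0.413. Set against start peaks, the difference in medians was -9.996 in pool G and -6.11 in pool H. In width they exceeded far intergenic peaks by 19 bp (pool G) and 14 bp (pool H), and the difference from start peaks was -874 bp (pool G) and -692 bp (pool H). An exact two-sided sign-flip permutation test over the pools gave p = 0.5 for each difference, the smallest value that 2 pools allow, so none could pass 0.05.

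**Figure D1:**
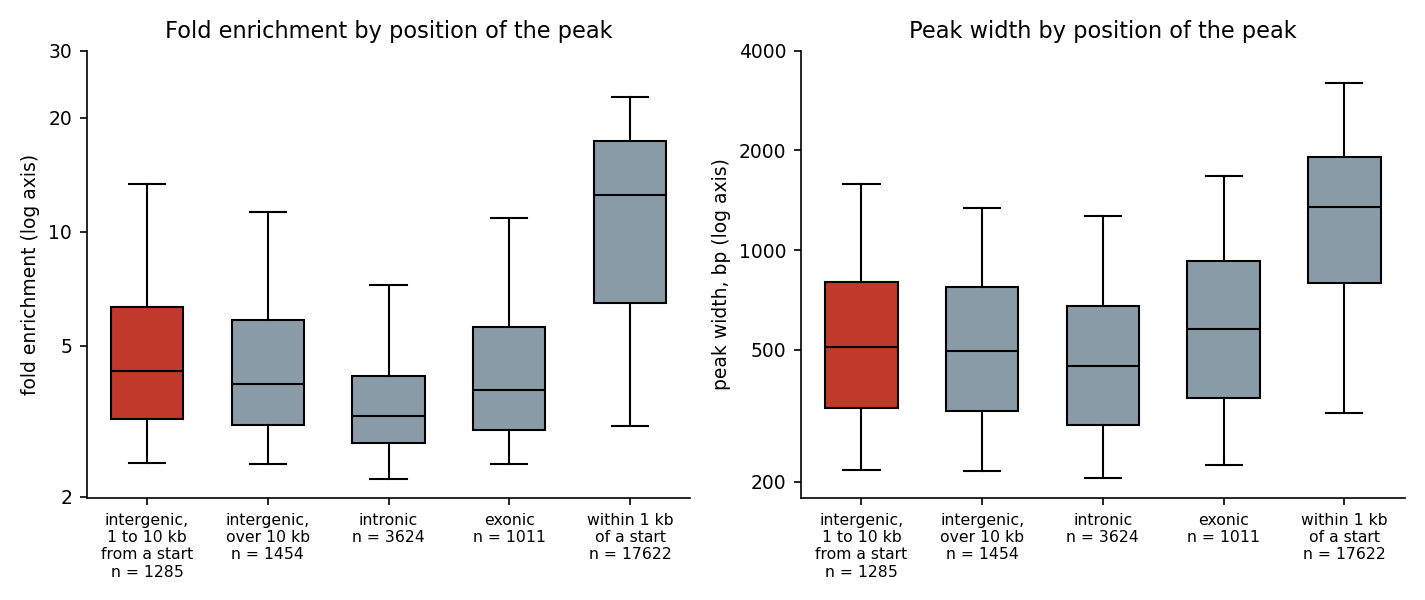
Fold enrichment (left) and width in bp (right), both on log axes, of all 24996 peaks by position, with the near intergenic peaks in red. Boxes span the quartiles with the median as a line and whiskers reach the 5th and 95th percentiles of the peaks; the red median of 4.29 lies above the far intergenic median of 3.96 and well below the start median of 12.5.

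Most of these peaks were found in pool G's own list, and fewer in pool H's. A peak of pool G's list overlapped 1118 of the 1285 by at least 1 bp (87.0%), against 92.5% of all peaks. A peak of pool H's list overlapped 824 (64.1%, exact binomial 95% interval 61.4 to 66.8%), against 79.9% of all peaks and 60.5% of far intergenic peaks. Both lists covered 795, pool G's list alone 323, pool H's list alone 29, and neither 138. The peaks in both lists had a median fold enrichment of 5.66 in the replicated list, those in pool G alone 3.35, those in pool H alone 3.15 and those in neither 2.83. The 138 found in neither list reached at most 4.30, so they rest on the joint call alone. Pool G's list held 24826 peaks in all and pool H's 21505, and the read depth of the pools is not given in the sources used here, so whether depth sets this gap was not tested.

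Where both lists held the peak, the pools ranked the peaks alike while pool G gave the higher values. Over the 795 peaks the median fold enrichment was 7.01 in pool G and 4.89 in pool H. Pool G was higher for 719, with a median log2 ratio of pool G to pool H of 0.49 and an SD of 0.43 across peaks. Across these peaks, which share their libraries and are not independent, Pearson's r of the log2 values was 0.82 and Spearman's rho 0.81. A few matches were to a peak of another class in that pool's list: 39 in pool G and 3 in pool H. Among the 773 peaks matched to the same class in both lists, the median log2 ratio was 0.49, with an SD of 0.37, and r was 0.86.

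**Figure D2:**
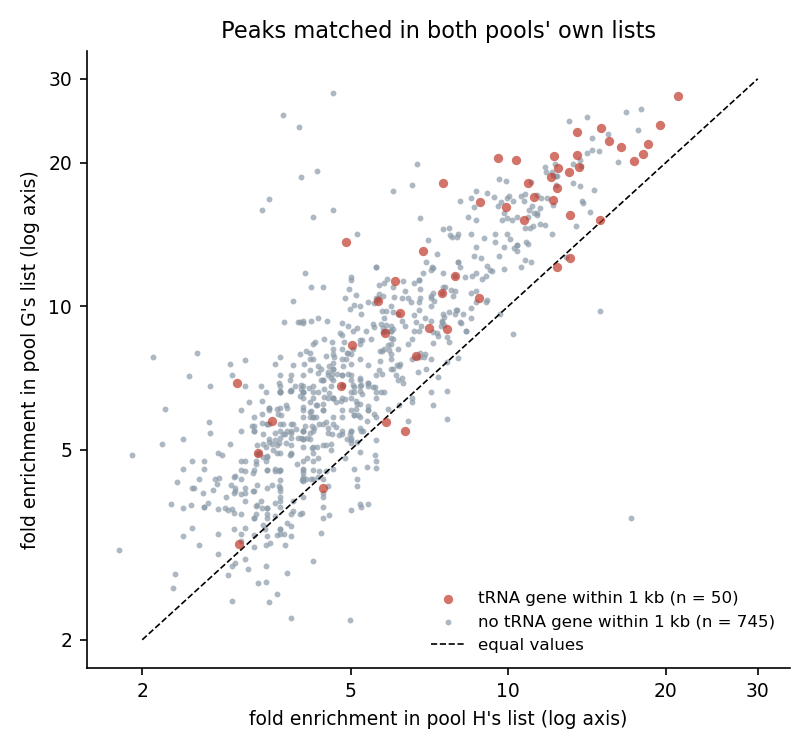
Fold enrichment of the 795 peaks found in both pools' own lists, in pool G (vertical, log axis) against pool H (horizontal, log axis), with peaks near a tRNA gene in red and all others in grey. Of the 795 points, 719 lie above the dashed line of equal values, and the red points run to the upper right end.

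The peaks spread over the whole window from 1 to 10 kb without a trend in strength. The distance of the nearest edge from the start had a median of 4577 bp (quartiles 2708 and 7038, range 1001 to 9988). Counts per kilobase were highest from 1 to 2 kb, with 202 peaks, and lowest from 9 to 10 kb, with 98. The median fold enrichment of the bins ranged from 3.94 to 4.61 and the share found in pool H's list from 58.8 to 71.9%, neither in order of distance. Intergenic sequence at these distances amounted to 330.8 Mb and held 1254 summits, which is 3.79 per Mb. Intergenic sequence more than 10 kb from a start amounted to 978.4 Mb and held 1.52 summits per Mb. Per Mb, the bins lay between 3.37 and 4.83 upstream and between 2.03 and 4.28 downstream, with the lowest in the first downstream kilobase. Peaks with an edge within 1000 bp of a start, or overlapping a gene body, were not counted. The sequence just past 1 kb and beside gene bodies was counted in full. The rule itself therefore lowers the first bins, and by how much was not tested.

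Upstream of the nearest start lay 843 peaks and downstream 442. The upstream share was 65.6% of the peaks, and 66.2% of the summits, while 63.4% of the intergenic sequence in the window was itself upstream. The excess over the sequence available was therefore small, and per Mb there were 3.96 summits upstream and 3.50 downstream. The gene bodies on either side gave 331 peaks lying between 2 starts, 686 between a start and an end, and 266 between 2 ends. At the bounds, the 5 peaks just inside 1000 bp had fold enrichments of 2.64 to 8.64 and the 5 just outside 2.67 to 6.15. The 5 just inside 10000 bp had 2.23 to 5.67, and the 5 just outside 4.11 to 11.7.

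**Figure D3:**
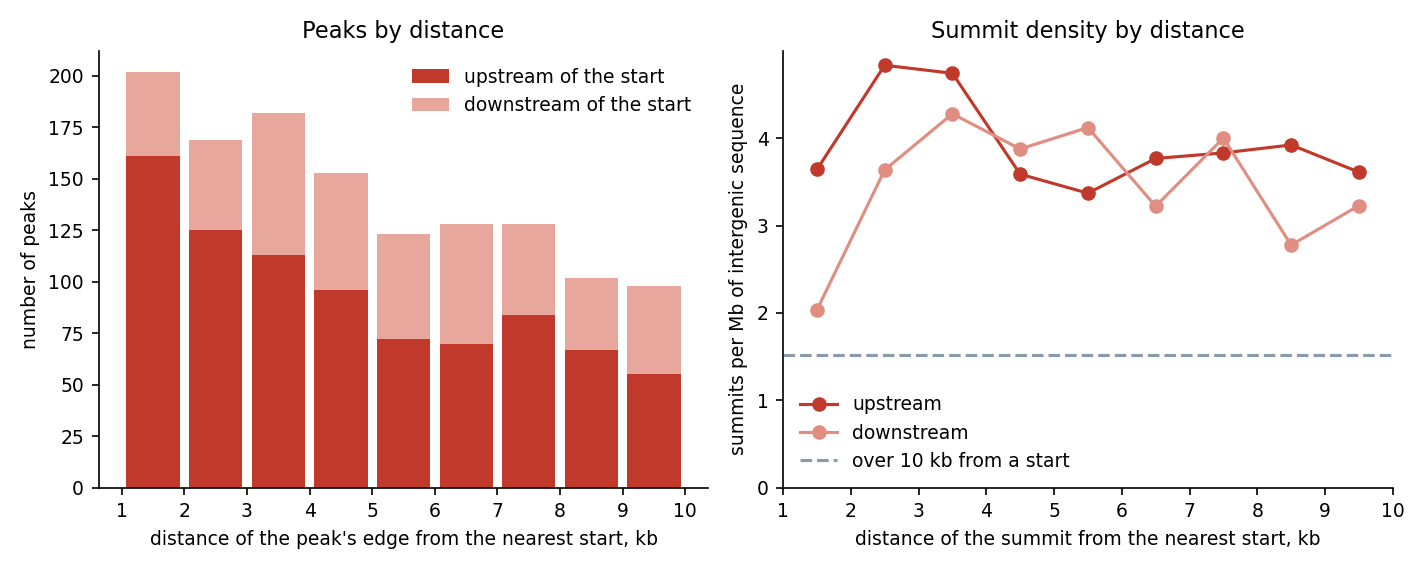
Left, number of near intergenic peaks per kb of distance between the peak's edge and the nearest start, upstream (dark) and downstream (light) of that start. Right, intergenic summits per Mb of intergenic sequence per kb of distance, with far intergenic sequence as a dashed line at 1.52; every bin lies above that line.

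The nearest start belonged to a protein-coding gene for 651 peaks, to a processed pseudogene for 200 and to a lincRNA for 174. That start was itself marked, with a peak within 1000 bp, for 592 of the 1285 (46.1%), against 33.4% of far intergenic peaks, 55.9% of intronic peaks and 84.9% of all peaks, and the share differed by gene type. The start was marked for 476 of the 651 peaks nearest to a coding start and for 53 of the 174 nearest to a lincRNA start. It was marked for 5 of the 200 peaks nearest to a processed pseudogene start. Several peaks can share a start, so these are counts of peaks and not of distinct starts. Joining peaks across gaps of up to 1000 bp put 131 peaks (10.2%) into a domain that reaches a start, against 27.2% of intronic, 23.7% of exonic and 75.9% of all peaks. Among the near intergenic peaks this held for 41.6% of the peaks from 1 to 2 kb and 12.4% of those from 2 to 3 kb, and for no more than 6.59% in each bin beyond. The 1285 peaks fell into 1147 such domains, and 108 domains held 2 or more of them. Peaks within 1 kb of a start, 70.5% of the list, count as marked and as joined by definition. The shares given for all peaks are therefore set mostly by that class.

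A second annotation placed a start at some of these peaks, as it did at some far intergenic peaks. RefSeq, whose starts were not part of the rule, had a transcript start within 1 kb of 204 peaks (15.9%), against 14.4% of far intergenic peaks and 68.5% of all peaks, and inside 102 of the 204. Of the 204 nearest RefSeq starts, 96 were of long non-coding RNAs, 55 of tRNAs, 47 of mRNAs and 6 of other transcripts. Kdm6b, an H3K27 demethylase, was such a coding case, chosen after its values were seen. No peak lay within 1 kb of any of its GENCODE coding starts, but a RefSeq mRNA start of Kdm6b lay inside 2 of its 5 intergenic peaks. These had fold enrichments of 16.9 and 9.31 in the replicated list. Pool G's list held them as a single peak of 19.9, and pool H's list as peaks of 12.3 and 6.69. The other 3 peaks of Kdm6b had 6.496, 3.57 and 3.43. The peak near Nfil3, a circadian repressor, also held a RefSeq mRNA start, with 5.88 and a width of 383 bp in the replicated list and 4.31 in pool H's. It joined a start peak, and the peak that it overlaps in pool G's list was 1814 bp wide with 19.2.

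Split by annotation, with each peak counted once, the set was a mixture of strong and weak groups. The 59 peaks within 1 kb of a tRNA gene had a median fold enrichment of 10.4 and a median width of 1200 bp. The 145 within 1 kb of another RefSeq start had 4.61 and 660 bp, and the 104 others that joined a start peak had 3.69 and 447.5 bp. Of the rest, 217 were CpG-rich, with 5.77 and 628 bp, and 760 were not, with 3.84 and 463 bp. A fold enrichment of 10 or more was reached by 30 of the 59 peaks near tRNA genes and by 26 of the 760 in the last group. Pool H's list held 86.4% of the tRNA group (exact binomial 95% interval 75.0 to 94.0%), 73.1% of the other RefSeq group, 55.8% of the joined group, 77.4% of the CpG-rich group and 58.0% of the last group. In the pools' own lists the tRNA group's median was 12.8 in pool G (n = 54) and 9.34 in pool H (n = 57). The last group had 4.38 in pool G (n = 795) and 4.19 in pool H (n = 489). These groups were drawn up with the values known and carry no test.

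**Figure D4:**
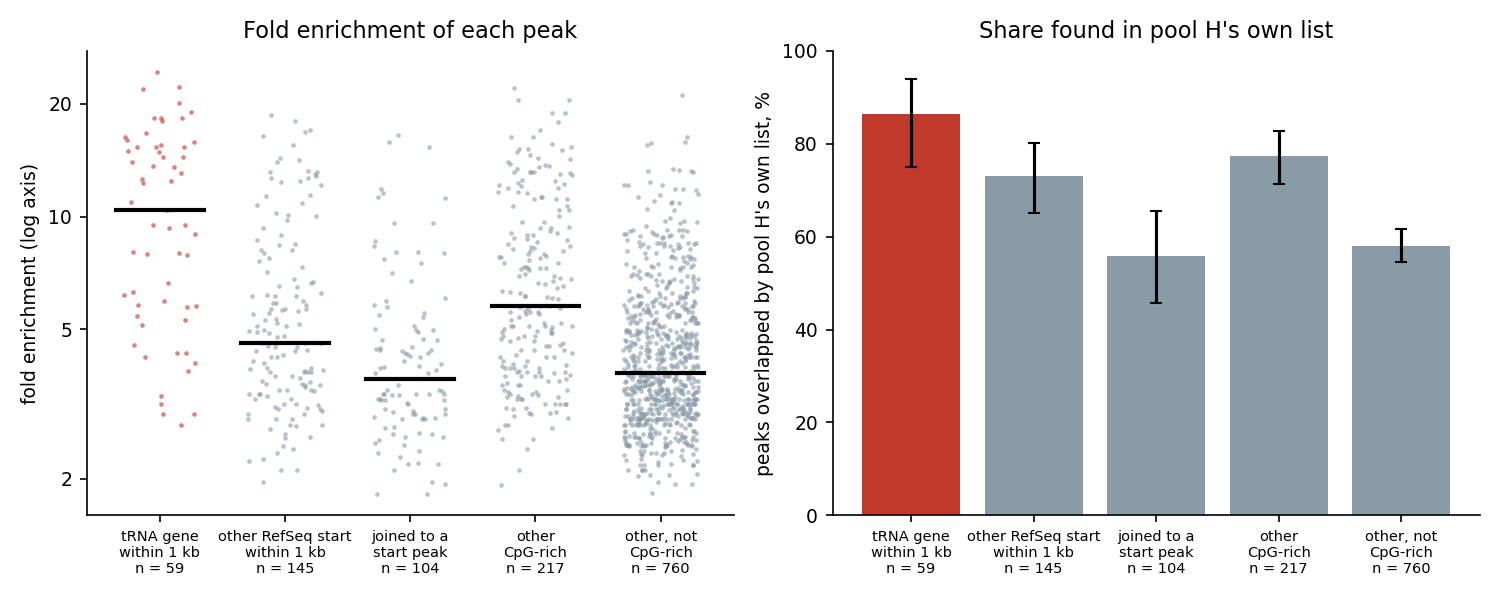
Left, fold enrichment (log axis) of each of the 1285 peaks in 5 annotation groups, with the group's median as a black bar. Right, the share of each group overlapped by pool H's own list, with exact binomial 95% intervals as bars for counting error only; the tRNA group, in red, has the highest median, 10.4, and the highest share, 86.4%.

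Peaks near tRNA genes made up 4.59% of the set, against 2.13% of far intergenic peaks (31 of 1454) and 0.68% of all 24996 peaks. Their median fold enrichment of 10.4 compares with 9.32 for the 31 far intergenic peaks and 15.7 for the 67 start peaks near tRNA genes. Of the 59, 38 overlapped a tRNA gene, with a median fold enrichment of 13.8 and a median width of 1711 bp, and 15 overlapped 2 or more. Without the 59, the other 1226 peaks had a median of 4.23, still above the 3.94 of far intergenic peaks away from tRNA genes. Of the 403 tRNA genes listed, 60 lay under these intergenic peaks and 45.4% under any peak. The 60 covered 18 of 20 amino acid letters, with leucine first at 12, and 16 lay on chromosome 13, which holds 105 of the 403, and 14 on chromosome 11. The B box letters, searched on the gene's own strand, were present in 46 of the 60 and in 250 of the 403. Of the 60, 44 had at least 1 identical copy elsewhere in the list and 16 had none. How the authors placed reads between identical copies is not given in the sources used here, so the values at copied genes are uncertain. Among all tRNA genes, a peak overlapped 60 of the 165 single-copy genes and 123 of the 238 copied ones.

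Of the 10 strongest peaks, 5 overlapped a tRNA gene. The peak at n-TIaat17, whose sequence is shown above, had 24.3 in the replicated list, 27.7 in pool G's and 21.1 in pool H's, and lay 6852 bp from the start of the lincRNA C430042M11Rik. The peak at n-TLcaa1, a leucine tRNA gene near Trim27, had 22.2 in the replicated list, 22.3 in pool G's and 15.6 in pool H's. Both were high in each list. A peak of 2659 bp near Aurkb, a mitotic kinase gene, covered the 4 tRNA genes n-TPcgg3, n-TDgtc9, n-TGtcc6 and n-TWcca7. It had 20.1 in the replicated list, 21.9 in pool G's and 18.5 in pool H's. The peak at n-TLtag2 near Rnase4, had 19.1 in the replicated list, 23.7 in pool G's and 15.0 in pool H's. Near Shf, which encodes an adaptor protein, 4 of 5 intergenic peaks lay on or within 1 kb of the histidine tRNA genes n-THgtg3, n-THgtg4 and n-THgtg5. The 5 had fold enrichments of 18.3, 12.6, 10.4, 5.28 and 4.26.

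The other 5 of the 10 strongest peaks lay away from tRNA genes. Kdm5b encodes a demethylase that removes H3K4 methylation. Its peak, 2657 bp upstream, had 21.1 in the replicated list, 25.6 in pool G's and 16.8 in pool H's, beside a start peak of 19.8. Vav1 encodes a signalling protein of blood cells. Its peak of 2440 bp, 2006 bp upstream, had 20.4 in the replicated list, 23.5 in pool G's and 17.7 in pool H's, while no peak lay within 1 kb of a Vav1 coding start. The remaining 3 had a non-coding gene or a pseudogene as the nearest start. A peak 4568 bp from the processed transcript Gm20539 had 22.0 in the replicated list, 25.9 in pool G's and 17.96 in pool H's. A peak 3259 bp from the lincRNA Gm44066 had 20.4 in the replicated list, 24.9 in pool G's and 14.2 in pool H's. A peak 7402 bp from the pseudogene Gm6082 had 18.9 in the replicated list, 24.5 in pool G's and 13.1 in pool H's, and was 1 of 5 whose nearest coding gene was Skor1, at 10938 to 54286 bp.

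Only 23 peaks were 2000 bp or wider, and the widest belonged to a regulator of differentiation. Id2 encodes an inhibitor of basic helix-loop-helix factors. Its widest peak spanned 2859 bp from 1323 bp upstream of the start, joined the start peak, and had 11.6 in the replicated list, 13.8 in pool G's and 7.03 in pool H's. Over tRNA genes lay the peaks near Dhx37, an RNA helicase gene (2844 bp, 13.5), Zfp692 (2541 bp, 5.97) and Olfr1423 (2446 bp, 16.03). The peak upstream of Sox4, a developmental transcription factor, spanned 2316 bp with 18.002. It lay 40 bp from a RefSeq start of the long non-coding RNA Gm46405. A peak 1263 bp from the start of the lincRNA Gm12974 spanned 2376 bp with 18.7. The Gm12974 peak joined a start peak and held a RefSeq mRNA start of Gm34296, and its nearest coding gene, Rps6ka1, lay 45773 bp away. Id1 and Id3, of the same family as Id2, had further intergenic peaks, with highest values of 6.06 for Id1 and 11.6 for Id3. The Id1 and Id3 peaks, and those named by Fosb and Slc16a1 further on, were chosen after their values were seen.

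DNA under these peaks was richer in CpG than intergenic sequence at the same distances from starts, and poorer than promoters. In the 300 bp around the summit, 298 peaks (23.2%) had an observed over expected CpG of at least 0.6 and at least 50% G and C. This compares with 52.4% of all peaks, 68.0% of start peaks, 18.4% of far intergenic peaks and 6.21% of intronic peaks. Of 105979 windows of 300 bp taken every 3000 bp through intergenic sequence at the same distances, 0.451% met both bounds. The median observed over expected CpG was 0.463 under the peaks and 0.142 in the windows. Bases that RefSeq masks as repeats made up a mean of 9.89% of the peak windows and 40.0% of the intergenic windows. Read placement in repeats is not given in the sources used here, and its part in that gap was not tested.

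Short motifs differed with their letters. Each was searched as exact letters on both strands of the 300 bp windows, and different motifs could overlap. The Sp and Klf letters GGGCGG, the GC box, were in 24.6% of the near intergenic peaks, 38.8% of all peaks and 2.6% of intergenic windows. The ETS letters CCGGAA were in 12.1% of the peaks, 14.8% of all peaks and 2.3% of windows. The GATA letters AGATAA were in 12.8% of the peaks, 8.0% of all peaks and 18.7% of windows. The MEF2 letters CTANNNNTA were in 20.2% of the peaks, 14.4% of all peaks and 34.1% of windows. The TEAD letters CATTCC were in 16.5%, 12.5% of all peaks and 16.2% of windows, and the NKX2 letters AAGTGG in 16.1%, 14.7% of all peaks and 18.2% of windows. GGGCGG and CCGGAA, which hold a CpG, were more frequent under the peaks than in the windows, and AGATAA and CTANNNNTA less frequent. The B box letters, which also hold a CpG, were in 9 of the near intergenic peaks (0.70%), 1.4% of all peaks and 1.7% of windows, and so were less frequent under the peaks than in the windows. They were in 1 of the 59 windows around summits near tRNA genes (1.7%), and how many of these windows hold the tRNA gene was not counted.

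Named by the nearest protein-coding start, the peaks belonged to 1010 of 21728 coding genes (4.65%), of which 813 had 1 peak and the others 2 to 6. That start lay a median of 8047 bp away and within 10 kb for 774 peaks. The promoters of the heart muscle genes Myh6, Actc1, Tnnt2 and Ryr2 all carried peaks, with highest fold enrichments of 5.39 to 11.1, while those of Alb, a liver gene, and Ptprc, a leukocyte gene, carried 0. Gene lists were read against the 4.65% of all coding genes, without a test, and the length of intergenic sequence around each gene was not weighed.

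Genes of cardiac transcription factors held the most of these peaks among the 15 lists. Of 30 such genes 12 had one (40%), with 22 peaks, a median fold enrichment of 3.49, and 15 of the 22 found in pool H's list. A coding start of the gene lay within 10 kb for 15 of the 22 peaks, at 8 of the 12 genes. Mef2d, a MADS-box factor of muscle, had the highest value. Its peak of 2102 bp, 2511 bp upstream and joined to the start peak, had 16.5 in the replicated list, 9.79 in pool G's and 15.0 in pool H's. Meis1, a homeobox factor that restrains the heart muscle cell cycle after birth, had a peak of 8.48 at 7348 bp upstream, found in both pools' lists. A peak of 13.2, also in both lists, had Meis1 as its nearest coding gene at 133518 bp. It lay 3438 bp from the GENCODE start of the non-coding gene 8430419K02Rik, but only 137 bp from a RefSeq start of that gene. Hand2, a basic helix-loop-helix factor of heart development, had peaks of 9.62 and 3.24 downstream, both joined to a start peak. The stronger had 10.2 for pool G and 9.06 for pool H.

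The lists of sarcomere genes, of ion channel and calcium genes, and of fatty acid and respiration genes had 2 or 3 genes each with a near intergenic peak. Their values were 5.87 or lower. Their shares lay above the 4.65% of all coding genes, but rest on these few genes. Of 30 sarcomere genes 3 had one (10%): Myl2, the ventricular regulatory light chain, with 5.87, and Lmod2 and Ankrd1 with at most 3.47. Of 31 ion channel and calcium genes 3 had one (9.68%): Kcnh2, a repolarising potassium channel, with 5.42 at 55332 bp downstream, Gja1, the main gap junction protein, with at most 3.01, and Atp2a2, which pumps calcium back into the reticulum, with 2.88. Of 30 genes for fatty acid use or respiration 2 had one (6.67%), Cox8b with 4.33 and Lpl with 3.46 at 62900 bp downstream. Pool H's list held 1 of the 4 sarcomere peaks, 1 of the 4 ion channel and calcium peaks and 1 of these 2. A coding start of the gene lay within 10 kb for 2 of the 4 sarcomere peaks and 2 of the 4 ion channel and calcium peaks. The same held for 1 of the 2 fatty acid and respiration peaks. The Atp2a2 peak was in neither pool's list. A RefSeq start of the long non-coding RNA Gm32997 lay inside the Lpl peak. The start peaks of Gja1, Atp2a2 and Lpl reached 15.0, 18.5 and 19.9. Each was higher than the near intergenic peaks named by that gene, whereas at Ankrd1 the start peak had 3.41 and the intergenic peak 3.46.

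Nkx2-5, the homeobox factor of heart muscle, was flanked on both sides, with 5 of these peaks. All but the strongest were chosen after their values were seen. Upstream, the peak at chr17:26849177-26851517 had 7.93 in the replicated list, 10.5 in pool G's and 7.13 in pool H's. The peaks beside it had 3.51 and 3.26, and the 2 downstream of the gene had 4.32 and 3.26. Pool G's list held all 5 and pool H's list 4. The gene's own start peaks reached 9.43. Peaks within a cluster can match the same wide peak of a pool's list, as the 4.32 peak does in pool G, where the match is 4614 bp wide.

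Of 29 endothelial genes 9 had a near intergenic peak (31.0%), with 18 peaks, a median of 3.44, and 11 found in pool H's list. A coding start of the gene lay within 10 kb for 13 of the 18 peaks, at 7 of the 9 genes. Egfl7, an endothelial secreted factor whose gene also holds the microRNA miR-126, had 6, the most of any coding gene. They lay from 1522 to 9852 bp upstream, with fold enrichments of 5.48, 4.42, 3.26, 2.44, 6.44 and 2.58 in order of distance. Pool G's list held 5 of them and pool H's list 5. Klf4, a factor induced by blood flow, had a peak of 13.2 in the replicated list, 14.9 in pool G's and 11.5 in pool H's, at 16334 bp downstream of its start, and a second peak of 2.19 found in neither pool's list. Dll4, a Notch ligand of arteries, had peaks of 8.03 and 3.46, and Tal1, a blood and endothelial factor, one of 6.17.

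**Figure D5:**
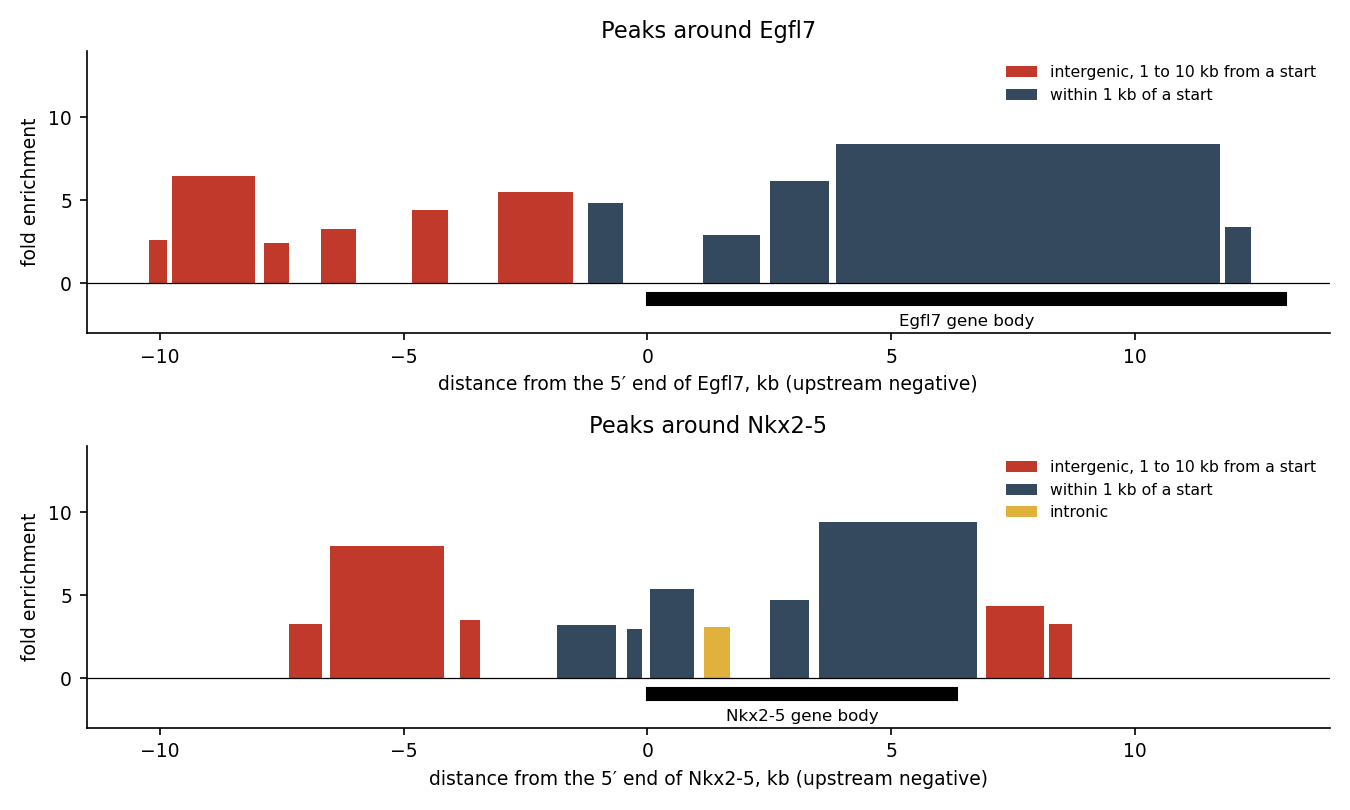
Peaks around Egfl7 (top) and Nkx2-5 (bottom) by distance in kb from the gene's 5′ end, upstream negative, with bar height as fold enrichment in the replicated list and the gene body as a black bar. The 6 red peaks lie on the upstream side of Egfl7, between 1522 and 9852 bp by their near edges from its nearest start, and the 5 at Nkx2-5 lie on both sides of the gene.

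Among the other lists, immune and skeletal muscle genes had no near intergenic peak. The shares of the Hox and imprinted lists lay near the 4.65% of all coding genes. Those of the rest lay above it, but for the fibroblast, smooth muscle, liver and neuronal lists this rests on 2 genes each. Of 22 fibroblast genes 2 had a near intergenic peak (9.09%), Tcf21 with 3.17 and Pdgfra with 2.26, and of 14 smooth muscle genes 2 (14.3%), Cnn1 with 7.05 and Foxs1 with 1.93. Of 20 immune genes and 21 skeletal muscle genes 0 had one. Of 17 liver genes 2 had one (11.8%), Foxa1 and Foxa2 with at most 3.55, and of 18 neuronal genes 2 (11.1%), Slc17a7 with 5.58 and Neurog2 with 2.73. The 5 of 19 circadian genes with a peak (26.3%) were Nfil3, Nr1d1, Tef, Bhlhe40 and Cry2. Apart from Nfil3, these reached at most 3.97. Of 41 signalling genes 5 had one (12.2%), Bmp10, Fos and the 3 Id genes. Of 39 Hox genes 2 had one (5.13%), Hoxb4 and Hoxd12, with at most 5.19. Of 18 imprinted genes only Cdkn1c, a cell cycle inhibitor, had any (5.56%), with 3 CpG-rich peaks of 8.47, 6.44 and 5.77, at 20750, 13114 and 3694 bp, all found in both pools' lists. In pooled tissue, a peak cannot be assigned to a cell type, and fewer cells with a mark and less mark per cell cannot be told apart.

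A small number of the peaks lay on enhancers that RefSeq lists, most of them tested by reporter genes in mouse embryos. Such an element overlapped 22 of the 1285 peaks (1.71%), against 0.636% of all peaks and 2.41% of far intergenic peaks. Of the 1019 elements listed, 159 are given as active in heart, and 5 peaks lay on 4 of these. The near intergenic peaks overlapped 18 listed elements, of which these 4 are active in heart. Peaks of any class overlapped 152 listed elements, of which 33 are active in heart. The share of heart elements among those overlapped was therefore similar for the near intergenic peaks and for all peaks. The peak upstream of Myl2, at chr5:122093225-122094497, lay on an element active in the heart of 6 of 6 embryos, and had 5.87 in the replicated list, 6.44 in pool G's and 6.55 in pool H's. The 2 neighbouring peaks upstream of Nkx2-5, of 7.93 and 3.26, lay on an element active in 3 of 7 embryos. The peak near Fosb had 9.04 in the replicated list, 11.4 in pool G's and 6.75 in pool H's, on an element active in 3 of 6 embryos. The peak whose nearest coding gene is Slc16a1, at 41371 bp upstream, had 3.55 in the replicated list, on an element active in 3 of 3 embryos, and was absent from pool H's list. The Myl2 peak also lay 36 bp from a RefSeq mRNA start of Myl2, so the element and that start cannot be told apart at this resolution.

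By chromosome, the peaks were densest on chromosome 11, with 126 or 1.06 per Mb, and sparsest on chromosome X, with 28 or 0.171 per Mb. Their share of a chromosome's peaks ranged from 3.61% on chromosome 7 to 6.60% on chromosome 3. Chromosome 13 held 18 of the 59 peaks near tRNA genes, and 105 of the 403 tRNA genes listed.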

How the data were processed

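H3K4me3 immunoprecipitation libraries (4, from pools G and H of heart) were made from fragments of 200 to 600 bp of frozen tissue, per the labels. The authors deposited 4 peak lists in narrowPeak format on mm10: 1 for each pool and 1 for both pools, called pseudoreplicated, and 1 for both called replicated, per the deposited library notes. Both technical replicates of a pool lead to 1 list, so nothing was available per library. The peak caller, its threshold and the read depth are not given in the sources used here, and no interval for depth could be set. A control experiment is named in the labels only as possible. The deposited signal value was read as a ratio, the fold enrichment over control; the files do not name that column, so this is an assumption. It was compared within a list and set side by side between pools. The deposited −log10 q values are the authors' own. Of the 1285 peaks 55 had q over 0.05 (4.28%), against 66 of 1454 far intergenic peaks and 667 of all 24996 peaks.

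All peaks lay within the chromosome lengths of GRCm38.p6. Genes and starts came from GENCODE M21, tRNA genes, further starts, enhancers and sequence from RefSeq, on chromosomes 1 to 19 and X. Distances ran from the nearest edge of a peak, overlaps needed 1 bp, and territory excluded gene bodies and undetermined bases. The tools were bedtools 2.31.1 and, under Python 3.11.15, pandas 2.3.3, numpy 2.4.6, matplotlib 3.10.9 and scipy 1.17.1. Overlaps, distances and joined intervals were tested on simulated data. Peaks are not replicates, so the only test was an exact sign-flip permutation over the 2 pools. The peaks, gene lists, groups and motifs were chosen with earlier results of these data known. Named were the 10 strongest and 10 widest peaks, the 3 coding genes with the most peaks (6 genes tied at 5 peaks after Egfl7, and the tie was broken by fold enrichment), and up to 4 peaks per gene list; not every peak of this rule is given, and 1 peak and its sequence are not reported here. Further peaks, as stated above, were chosen after their values were seen. Alternatives tried were each of the other lists, a bound of 5 on −log10 q, summit distances, coding genes only, other distance bounds, overlaps, gaps, CpG bounds and start windows.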

Additional observations from a re-analysis of the deposited data

How the results depend on the processing

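With pool G's or pool H's own list in place of the replicated one, the set of near intergenic peaks held 908 to 1291 peaks, 4.22 to 5.20% of all peaks. The median fold enrichment was then 4.70 to 5.02, the median width 546 to 601 bp, the share joined to a start peak 9.84 to 10.2%, the CpG-rich share 22.1 to 27.5%, and the share with a marked nearest start 43.8 to 45.2%. In the list called pseudoreplicated on both pools, the median fold enrichment was 4.01, 11.9% were joined, 47.4% had a marked start, and 89.8% were found in pool G and 58.4% in pool H. At a −log10 q of at least 5, the peaks were 4.33% of all, with medians of 5.43 and 660 bp, 7.60% joined, 29.5% CpG-rich, 42.6% with a marked start, 98.2% found in pool G and 83.3% in pool H. Measured from the summit, 12.3% were joined and 49.2% had a marked start.

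With bodies and starts of coding genes only, the peaks were 4.38% of all, with medians of 4.52 and 561 bp. Of them, 14.3% were joined, 28.2% CpG-rich, 72.1% had a marked start, 89.0% were in pool G and 67.1% in pool H. An outer bound of 5000 bp left 706 peaks (2.82%), 17.7% joined and 49.6% with a marked start. An inner bound of 2000 bp gave 4.33%, 5.45% joined and 44.0% with a marked start. An overlap of 50% of both peaks gave 79.1% in pool G and 60.2% in pool H. With no gap bridged 0 were joined, and with gaps of 3000 bp 23.7%. CpG bounds of 0.5 and 0.7 gave 32.4% and 15.3% CpG-rich, and the whole peak 16.7%. Start windows of 500 bp gave 42.7% of peaks with a marked start, and of 2000 bp without the peak itself 48.3%. The causes of these shifts were not tested beyond what each setting changes.

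The differences from each of the 4 other classes kept their direction in both pools, as did that from far intergenic peaks under every list, the q bound and without tRNA peaks, which were added after seeing the data (0.168 to 0.472). No paired analysis was possible between groups of samples because all samples form 1 group; the differences between classes of peaks were taken within each pool. The rule for peaks depends on the annotation, and unknown depth limits what an absent peak means.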
